A study of Saccharomyces cerevisiae with 5 samples.

Results

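The genes described here encode the proteins of the small (40S) subunit of the cytosolic ribosome of the budding yeast Saccharomyces cerevisiae. Members were all spots whose gene symbol is RPS followed by a number and, where the gene is duplicated, the letter A or B. This gave 55 of the 5583 genes named on the arrays, with 66 spots on arrays 1 and 2 and 108 spots on arrays 3, 4 and 5. RNA precipitated with zzYra1, the tagged form of an RNA-binding protein, was co-hybridised on each of 5 spotted arrays with total RNA, each as cDNA in a channel of its own. Arrays 1 and 3 had the precipitated RNA (IP) in channel 1, and arrays 2, 4 and 5 had it in channel 2. Arrays 1 and 2 were of 1 printed design and arrays 3, 4 and 5 of a second one. The strain's other alleles, the growth conditions and the promoter of the tagged gene are not given in the sources used here, and no precipitation from an untagged strain was analysed.

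The 40S subunit binds messenger RNA (mRNA), scans it for the start codon and holds the site where codons are read. Most of its proteins are encoded in budding yeast by a pair of duplicated genes, A and B, whose products are identical or nearly so. Ribosomal protein mRNAs are among the most abundant of growing yeast, and many of their genes carry an intron, which few other yeast genes do. Yra1 binds RNA in the nucleus and hands mRNA to the export receptor Mex67-Mtr2, and the comparison asks which transcripts it was bound to more or less than their share of total RNA.

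Each value is a log2 ratio of the channels of 1 spot, centred on its array's median and averaged over the spots of a gene. Whether IP or total RNA is on top of the ratio is not given. Higher and lower therefore mean the ratio as deposited. Arrays 2, 4 and 5 run the same way as each other under either reading, and so do arrays 1 and 3, but the direction between these sets is unknown. For this reason each array is described on its own first. Arrays 1 and 2 carry the same code in their titles with the channels exchanged and may share their RNA, so their mean is replicate 1, and arrays 3, 4 and 5 are replicates 2, 3 and 4. The labels name no cultures, and a p-value here reflects array-to-array spread, which may be technical.

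Array 5 differed from the rest before any gene is considered. The SD of its single spots was 2.30, against 0.848 to 1.15 on the other arrays. Spots listed next to each other shared their level there: the running median over 81 spots in list order ran from -3.58 to 2.85 on array 5, against -0.46 to 0.60 on array 2. For array 1 its lowest and highest values were -1.47 and 0.86, for array 3 -3.07 and 0.84, and for array 4 -0.89 and 1.07. Where a member is described by its values on each array, its array 5 value is therefore also given with this local level removed. Members also followed their local level on array 1, with a Pearson correlation of 0.63, against 0.47 on array 5. On arrays 2, 3 and 4 it was 0.09, 0.22 and -0.05.

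Small-subunit genes gave a value on more arrays than yeast genes as a whole. Of the 55 members, 13 (23.6%) had a value on all 5 arrays, against 475 of all 5583 genes (8.51%). Array 1 measured all 55 members, array 2 measured 44 (80.0%, against 68.9% of all genes), array 3 measured 34 of the 54 spotted there (63.0%, against 48.8%), array 4 measured 39 (72.2%, against 57.7%) and array 5 measured 28 (51.9%, against 31.0%). RPS14A had no named spot on arrays 3 to 5. Both copies of RPS9, whose protein lies near the mRNA entry and guards decoding accuracy, had a value on array 1 alone. Another 8 members (RPS11B, RPS14A, RPS19B, RPS20, RPS24B, RPS25B, RPS26B and RPS29B) were measured on only 2 arrays. Where the channel intensities could be recovered from the ratios, member spots were brighter than the spots of all genes on arrays 3, 4 and 5. The median log2 brightness was 10.6 for members and 9.66 for all genes on array 3, 10.9 and 10.5 on array 4, and 10.2 and 8.98 on array 5. On arrays 1 and 2 the medians were close, at 9.63 for members and 9.63 for all genes and at 10.2 and 10.1. These are averages of the 2 channels, which lay far apart there. Over all genes the median log2 intensity on array 1 was 7.35 for the top of the ratio and 11.9 for the bottom. On array 2 it was 12.3 and 7.91. What this does to the extreme ratios of these arrays was not tested. The medians of array 3 rest on 24 of 62 member spots and 1370 of 4264 spots of all genes. Recovery kept only intensities with a product under 1e+08, so bright spots can be missing. The part of brightness in which spots have a value was not tested.

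**Figure D1:**
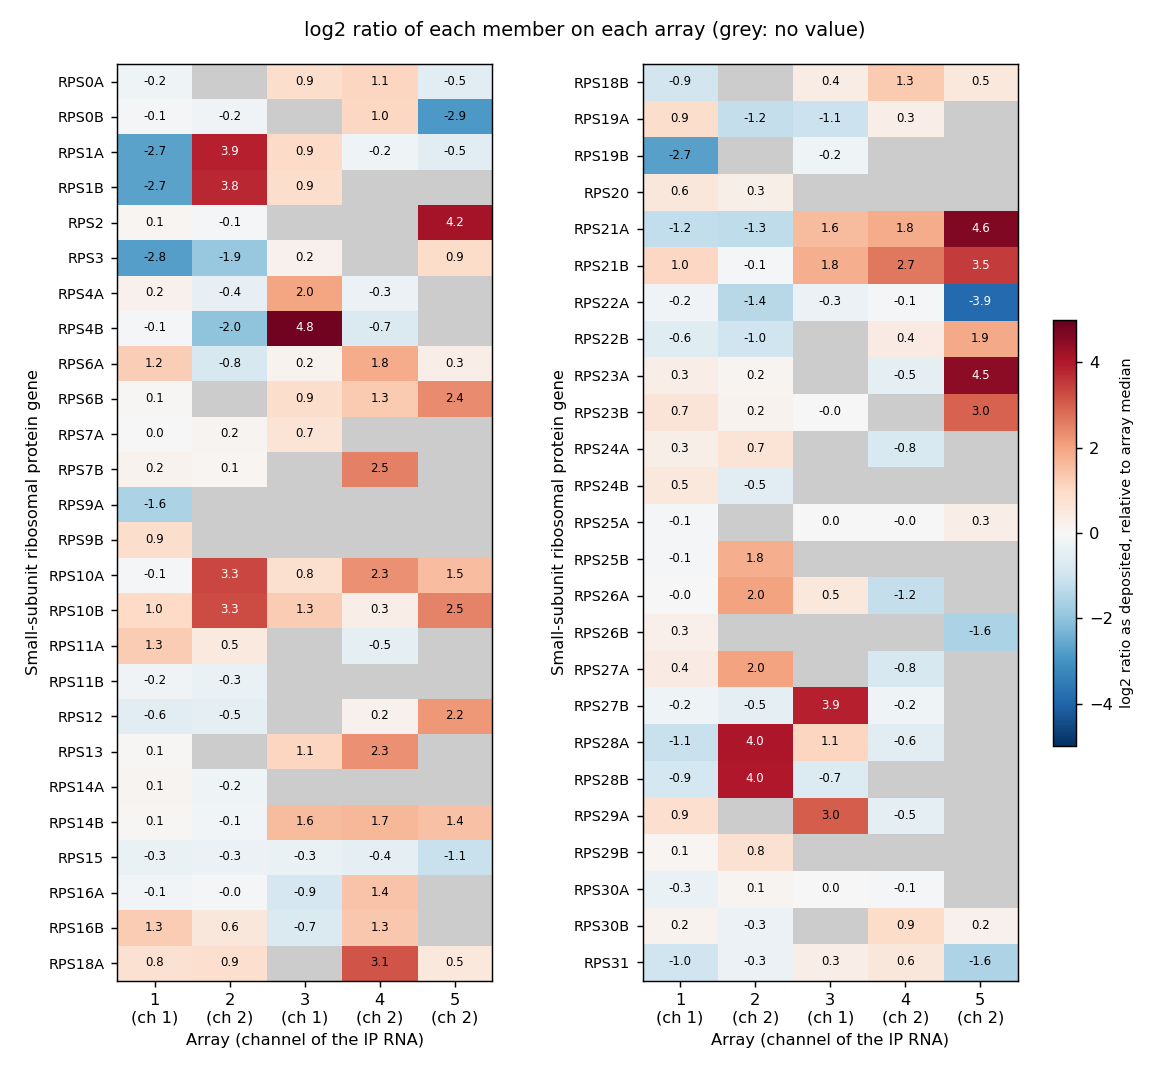
Log2 ratio of the small-subunit genes described (rows) on arrays 1 to 5 (columns, with the channel of the IP RNA), relative to the array median. Red is above and blue below that median, grey cells have no value, and the printed numbers are rounded. RPS1, RPS10 and RPS28 are red in both copies on array 2, between 3.26 and 4.04, and RPS4B at 4.81 is the highest member on array 3.

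As a group the members lay close to the middle of arrays 1 and 2 and above it on arrays 3, 4 and 5. Their median was 0.06 on array 1 (large-subunit genes 0.04, all genes -0.01) and 0.04 on array 2 (large-subunit genes 0.14, all genes 0.00). It was 0.74 on array 3 (0.46 and -0.04), 0.31 on array 4 (0.98 and -0.03) and 0.91 on array 5 (1.88 and -0.10). Members above the array median numbered 30 of 55, 22 of 44, 25 of 34, 22 of 39 and 21 of 28 on arrays 1 to 5. In all genes the share above 0 ran from 47.6% to 50.2% over the arrays. With the local level removed, the members' median on array 5 was 0.41, with 17 of 28 above 0, and on array 3 it was 0.68, with 25 of 34 above 0. The other arrays' medians moved by less than the SD of the replicate medians. The members were chosen with results of these arrays known, so no test is given for the group.

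**Figure D2:**
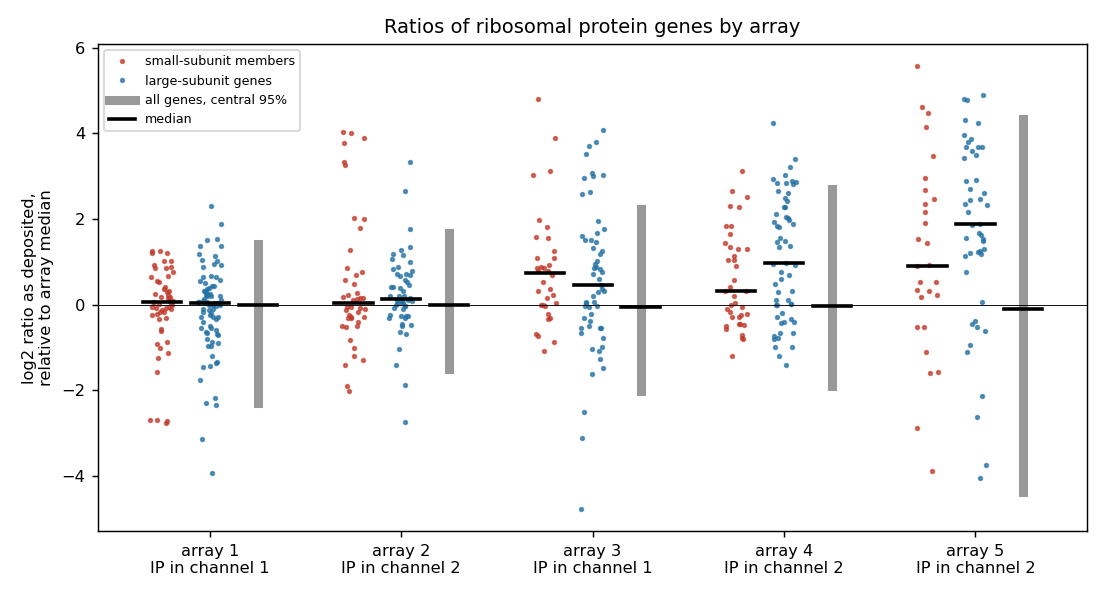
Log2 ratios, relative to the array median, of small-subunit members (red points), large-subunit ribosomal protein genes (blue points) and all genes (grey bar, central 95% of genes) on each array, with medians as black lines. On arrays 1 and 2 the medians of both subunits lie near 0, and on arrays 3, 4 and 5 they lie above it.

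Members past a log2 ratio of 2 in either direction, which is 4-fold, were mostly different genes on different arrays. RPS10A, RPS10B and RPS21B were above 2 on 2 arrays each. RPS1A and RPS1B were below -2 on array 1 and above 2 on array 2. RPS4B was below -2 on array 2 and above 2 on array 3. Array 2 had 7 of its 44 members above 2, where 1.87% of all genes on that array were. They were both copies of RPS28, RPS1 and RPS10, and RPS27A. Array 2 had 1 member below -2, RPS4B (-2.02, where 1.17% of all genes were below -2). Array 1 had none above 2 (0.415% of all genes) and 4 of 55 below -2 (4.1%): RPS3, RPS19B, RPS1A and RPS1B, all between -2.76 and -2.68. Array 3 had 4 of 34 above 2 (3.33%), among them RPS4B, RPS27B and RPS29A, and none below -2 (2.55%). Array 4 had 5 of 39 above 2 (5.69%), which were RPS18A, RPS21B, RPS7B, RPS13 and RPS10A, and none below -2 (1.94%). Array 5 had 10 of 28 above 2 (16.4%), among them RPS21A (4.63), RPS23A (4.48) and RPS2 (4.15), and 2 below -2 (22.2%), RPS22A and RPS0B. With the local level removed, array 5 still had 10 of 28 above 2 (8.1% of all genes) but now 4 below -2 (6.58%), which were RPS1A, RPS6A, RPS18A and RPS26B, while RPS22A was at -0.60 and RPS0B at -1.85. Of the 10, RPS2 was at 2.72, RPS21A at 2.02 and RPS23A at 2.08. RPS10B, RPS6B and RPS23B were no longer among them, and RPS14B and RPS22B were among those that had joined. The same step left 3 of 55 below -2 on array 1 (81 of 5541 genes), with RPS1B at -1.81, and 0 above 2 (29 genes). Above 2 were then 7 of 44 on array 2 (66 of 3845), 5 of 34 on array 3 (83 of 2705) and 7 of 39 on array 4 (159 of 3196). Arrays 2, 3 and 4 had 0 below -2 (42, 39 and 67 genes).

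Among proteins of the mRNA entry and decoding site, RPS3 had the lowest values on arrays 1 and 2. RPS3, which lines the mRNA entry channel, had -2.76, -1.90, 0.23 and 0.93 on arrays 1, 2, 3 and 5, with no value on array 4. It was thus low on both arrays of the first design and not below the middle on the others. On array 5 it had 0.05 once the local level was removed. RPS15, a head protein reaching towards the decoding centre, had -0.32, -0.28, -0.33, -0.44 and -1.10 on arrays 1 to 5. It lay below the middle on every array, by a like amount on arrays 1 to 4. With the local level removed it had 0.38 on array 1 and -1.90 on array 5, so that the sign on array 1 turned. RPS2, at the entry channel, was at the middle on arrays 1 and 2 (0.08 and -0.06). These values average spots at -0.10 and 0.26 on array 1 and at -0.59 and 0.48 on array 2. RPS2 reached 4.15 on array 5, where the local level was 1.43 and the value with it removed 2.72. RPS23, whose protein sits at the decoding centre, followed the same course in both copies: RPS23A had 0.32, 0.15, -0.46 and 4.48 on arrays 1, 2, 4 and 5, and RPS23B had 0.65, 0.17, -0.03 and 2.96 on arrays 1, 2, 3 and 5. The local level on array 5 was 2.39 around RPS23A and 2.05 around RPS23B, and with it removed the copies had 2.08 and 0.91. RPS30A stayed between -0.31 and 0.14 on its 4 arrays, and RPS30B ran from -0.29 to 0.91, with 1.67 on array 5 once the local level was removed. RPS31, made as a fusion to ubiquitin, had -1.01, -0.31, 0.32, 0.57 and -1.56 on arrays 1 to 5, the last at a local level of -2.82 and at 1.26 with it removed.

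Head proteins and those at the mRNA exit included the members with the highest ratios of array 2. RPS28A had -1.12, 4.04, 1.08 and -0.57 on arrays 1 to 4, and RPS28B had -0.87, 4.01 and -0.68 on arrays 1 to 3. RPS28 is a small protein at the mRNA exit, and its copies were the 2 highest members on array 2 while both lay below the middle on array 1. RPS10, a protein of the head near the mRNA entry, was high in both copies on array 2. RPS10A had -0.05, 3.33, 0.78, 2.29 and 1.53 on arrays 1 to 5. RPS10B had 1.01, 3.26, 1.26, 0.31 and 2.47. With the local level removed on array 5, which was 2.64 and 2.02 around them, the copies had -1.12 and 0.44 there. RPS14B, whose protein helps build the platform at the mRNA exit, had 0.06 and -0.12 on arrays 1 and 2, against 1.58, 1.65 and 1.45 on arrays 3, 4 and 5. As deposited, it was thus at the middle on the first design and high on the second. Array 3 holds the IP RNA in channel 1 and arrays 4 and 5 in channel 2, so these high values need not share 1 direction. The 1.45 of RPS14B on array 5 averages 2 spots that differed by 2.00, the higher at 2.45. Its surroundings there lay at -2.09, and with that level removed it had 3.54. RPS18A, whose protein lies at the top of the head facing the large subunit, had 0.77, 0.86, 3.13 and 0.53 on arrays 1, 2, 4 and 5. The local level around it on array 5 was 2.69, and with it removed the sign turned, to -2.16. RPS12 had -0.56, -0.49, 0.20 and 2.18 on the same arrays, with 3.69 on array 5 once a local level of -1.52 was removed. RPS19A, a head protein, had 0.86, -1.18, -1.08 and 0.32 on arrays 1 to 4 and was the lowest member of array 3, while RPS19B had -2.72 on array 1 and -0.20 on array 3.

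Body, platform and foot proteins included the highest member of array 3 and the lowest of array 5. RPS4B had -0.10, -2.02, 4.81 and -0.71 on arrays 1 to 4, so that the lowest member of array 2 was the highest of array 3. Its spots on array 3 were at 4.79 and 4.83. RPS27B had -0.22, -0.49, 3.90 and -0.21 on the same arrays, again high on array 3 alone. RPS21, a small protein of the platform side that also takes part in 40S maturation, was high on the second design in both copies as deposited. RPS21B had 1.02, -0.09, 1.82, 2.65 and 3.48 on arrays 1 to 5, and RPS21A had -1.23, -1.28, 1.57, 1.84 and 4.63. Copy A thus lay below the middle on both arrays of the first design and above it on all 3 of the second. With the local level removed on array 5, RPS21B had 3.15 and RPS21A 2.02 there. RPS6B had 0.06, 0.86, 1.31 and 2.36 on arrays 1, 3, 4 and 5, the last at a local level of 1.98 and at 0.38 with it removed. RPS22A, a protein of the body, had -0.18, -1.39, -0.30, -0.10 and -3.88. Its value on array 5 was the lowest of any member there, but the spots around it lay at -3.28, and with that level removed it had -0.60. RPS13 (0.07, 1.09 and 2.30 on arrays 1, 3 and 4) and RPS7B (0.19, 0.12 and 2.51 on arrays 1, 2 and 4) were highest on array 4. RPS11A was the highest member of array 1 (1.26) and RPS26A, which contacts mRNA at the exit, the lowest of array 4 (-1.20).

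**Figure D3:**
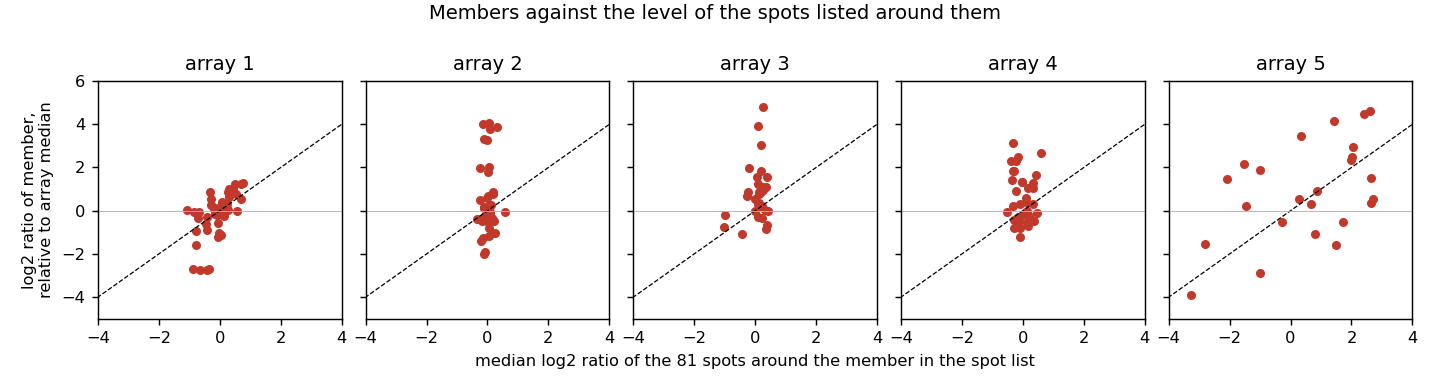
Log2 ratio of the measured members described (vertical axis) against the median log2 ratio of the 81 spots around it in the spot list (horizontal axis), per array, with the line of equality dashed. On array 5 the local level of members runs from -3.28 to 2.69, against -0.33 to 0.58 on array 2.

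Among pairs measured on at least 3 arrays, RPS1 gave the closest agreement between copies as deposited, and its level differed widely between arrays 1 and 2. RPS1A had -2.69, 3.89, 0.94, -0.23 and -0.52 on arrays 1 to 5, and -2.25 on array 5 with a local level of 1.72 removed. RPS1B, encoding a nearly identical platform protein, had -2.68, 3.78 and 0.88 on arrays 1, 2 and 3. Both copies were thus far below the middle on array 1 and far above it on array 2, whose channels are exchanged. RPS28 had the same signs on these arrays, with a smaller size on array 1. If the ratios follow the channels, turning array 2 gives RPS1 and RPS28 values of 1 sign on the pair. If they do not, the values on the pair are opposite. Of the 44 members measured on both arrays, 18 had opposite signs and 26 the same sign. Over all genes, 1914 of the 3814 measured on both had the same sign. Of the 18, 8 were below the middle on array 1 and above it on array 2, namely both copies of RPS1 and of RPS28, RPS10A (-0.05 and 3.33), RPS26A (-0.01 and 2.00), RPS25B (-0.08 and 1.80) and RPS30A (-0.31 and 0.14). The other 10 had the reverse signs. RPS3, RPS21A and RPS22A were below the middle on both as deposited. The spots listed around the RPS1, RPS10 and RPS28 spots on array 2 had medians between -0.14 and 0.31. Over the 44 members the Pearson correlation of arrays 1 and 2 was -0.22 and Spearman's rho 0.11. The copies of a pair can hybridise to each other's spots and so are not independent points.

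Among members as among all genes, arrays agreed little on which genes were high. The strongest relation was between arrays 3 and 5, with a Pearson correlation of 0.48 over 19 members (0.23 over 1025 genes of the whole set). Array 3 holds the IP RNA in channel 1 and array 5 in channel 2. The sign of this relation in terms of IP RNA is therefore unknown, and it is not given with the local level removed. The other 9 pairs of arrays ran from -0.22 to 0.24 over 22 to 44 members. These are descriptions across genes, which share probes within pairs. Within an array of the second design, the median gap between the 2 spots of a member was 0.53 for array 3 (28 members), 0.33 for array 4 (35 members) and 0.38 for array 5 (24 members). Over all genes these gaps were 0.44, 0.34 and 0.41. On the first design, members with 2 measured spots had median gaps of 0.50 on array 1 (11 members) and 0.51 on array 2 (3 members). Over all genes the gaps there were larger than on the second design, at 0.71 (1098 genes) and 0.61 (430 genes). Neighbouring duplicate spots on the second design share the level of their surroundings.

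On each array the median gap between copies A and B of a gene was smaller than that between genes of different families. There are 24 pairs and 7 members with no copy. Over arrays 1 to 5 the gap between copies was 0.39 (24 pairs), 0.43 (15 pairs), 0.71 (9 pairs), 0.56 (12 pairs) and 1.52 (9 pairs). Between different families it was 0.79, 1.19, 1.07, 1.12 and 2.16. Copies had the same sign in 48 of the 69 comparisons of a pair on an array (69.6%). No such share is given for genes of different families. On array 5, 21 of 28 members lay above 0, which by itself raises this share. Across pairs the Pearson correlation of copy A with copy B over arrays 1 to 5 was 0.18, 0.84, 0.58, 0.63 and 0.49. For large-subunit pairs it was -0.09, 0.25, -0.42, 0.68 and 0.29. Whether the subunits differ in this was not tested.

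Of the 15 pairs measured together on at least 3 arrays, RPS1, RPS16 and RPS23 had the smallest mean gaps as deposited. RPS1A minus RPS1B was -0.01, 0.11 and 0.06 on arrays 1, 2 and 3. RPS16A minus RPS16B was -1.39, -0.61, -0.12 and 0.10 on arrays 1 to 4, and RPS23A minus RPS23B was -0.34, -0.02 and 1.52 on arrays 1, 2 and 5. These gaps depended on the local level. Once it was removed, RPS1A had -2.34 and RPS1B -1.81 on array 1, and RPS16A had -1.21 and RPS16B 0.30 on array 3. RPS23A and RPS23B came closer on array 5, at 2.08 and 0.91. Large mean gaps were those of RPS22, RPS4 and RPS27. RPS22A minus RPS22B was 0.44, -0.38, -0.52 and -5.79 on arrays 1, 2, 4 and 5, so the gap rests on array 5. The local level there was -3.28 around RPS22A and -1.01 around RPS22B, and with it removed the copies had -0.60 and 2.91. RPS27A minus RPS27B was 0.64, 2.51 and -0.59 on arrays 1, 2 and 4. RPS4A minus RPS4B was 0.33, 1.62, -2.83 and 0.42 on arrays 1 to 4 and so changed sign between arrays. Outside these, RPS19A exceeded RPS19B by 3.59 on array 1 (0.86 for A and -2.72 for B) but lay 0.87 below it on array 3, a pair chosen after its values were seen. RPS28A and RPS28B differed by 0.03 on array 2 but by 1.76 on array 3.

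**Figure D4:**
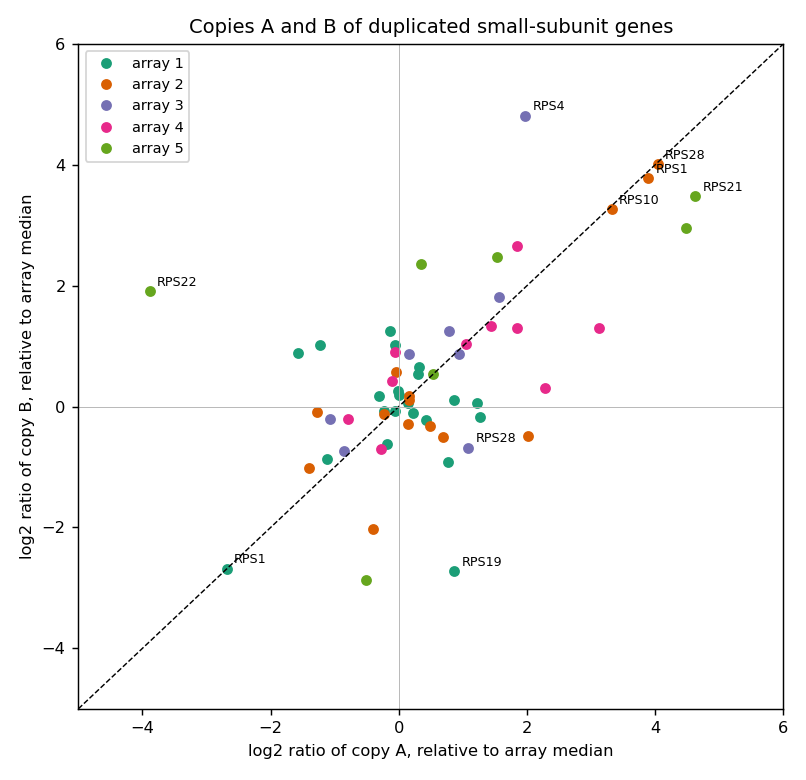
Log2 ratio of copy A (horizontal axis) against copy B (vertical axis) for the pairs described, where both copies were measured on an array, coloured by array, relative to the array median, with the line of equality dashed. RPS1, RPS10 and RPS28 on array 2 and RPS1 on array 1 lie on the line, and RPS22 on array 5, RPS19 on array 1 and RPS4 on array 3 lie far from it.

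Members with and without an intron differed in opposite ways on different arrays. Intron state was taken from general knowledge of these genes and not from the files (36 with an intron, 19 without). The medians were 0.16 for members with an intron and -0.08 for those without on array 1, -0.04 and 0.28 on array 2, 0.82 and 0.43 on array 3, 0.97 and -0.10 on array 4, and 1.45 and 0.33 on array 5. As deposited, members with an intron were the higher set on 4 arrays and the lower on array 2. Arrays 1 and 3 have the IP RNA in channel 1 and the others in channel 2, so these arrays need not share 1 direction. The array 5 medians still hold its local level. On array 4, 18 of 28 members with an intron and 4 of 11 without lay above 0. This is a description with no test.

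Pooled over replicates, no member passed the test. A value in all 4 replicates was held by 17 of the 55 members (30.9%, against 12.6% of all genes), and 13 of these had both arrays 1 and 2 in replicate 1 while 4 (RPS0A, RPS6B, RPS18B and RPS25A) had array 1 alone. With limma and Benjamini-Hochberg adjustment over all 703 genes tested, 0 of the 17 members had an adjusted p under 0.05, as had 0 of all genes (0%). At an unadjusted p under 0.05 there were 3 members (RPS10A, RPS10B and RPS21B), against 55 of all genes (7.82%). The robust form of eBayes with a mean-variance trend found 0 genes too, and 19 before adjustment. The median of the 17 means was 0.64, against 0.04 for all genes tested, and 14 of the 17 means lay above 0, against 51.8% of all genes. With the arrays that hold IP RNA in channel 2 turned, the median was -0.32 and 6 of the 17 lay above 0.

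RPS21B had the highest mean of the tested members at 2.10 ± 1.29 (SD, n = 4 replicates, limma adjusted p = 0.54), from replicates at 0.47, 1.82, 2.65 and 3.48. All 4 of its replicates lay above 0, the first close to the middle. RPS10A followed among those with the smallest p, with 1.56 ± 0.62 (limma adjusted p = 0.54) and replicates at 1.64, 0.78, 2.29 and 1.53. Its copy RPS10B had 1.54 ± 0.97 (limma adjusted p = 0.54) and replicates at 2.14, 1.26, 0.31 and 2.47. In copy A the first replicate averages -0.05 on array 1 and 3.33 on array 2. With the position trend removed from all arrays, replicate 4 of RPS10A was at -1.12, and the means were 1.02 ± 1.62 for RPS10A, 1.00 ± 0.74 for RPS10B and 1.76 ± 1.20 for RPS21B (SD, n = 4 replicates). RPS21A had a mean of 1.69 with a much larger SD of 2.41, its first replicate being at -1.26, and 1.04 ± 1.53 with the position trend removed. Turned, RPS21B had -0.94, RPS10A -1.18, RPS10B -0.66 and RPS21A -1.22, with limma adjusted p = 0.92 for each.

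RPS14B had a mean of 1.16 ± 0.80 and RPS6B of 1.15 ± 0.96 (SDs over 4 replicates). With the position trend removed RPS14B had 1.53 ± 1.52 and RPS6B 0.55 ± 0.65. RPS6A (0.64), RPS18B (0.32), RPS0A (0.29) and RPS1A (0.20) lay within 1 SD of 0. For RPS1A, replicate 1 at 0.60 averages -2.69 on array 1 and 3.89 on array 2. The SD of RPS1A over replicates was 0.69 as deposited and 1.95 turned. RPS25A (0.06 ± 0.18) had the smallest spread of the 17 and stayed near the middle. Below 0 were RPS31 (-0.33 ± 0.97), RPS15 (-0.54 ± 0.38) and RPS22A (-1.27 ± 1.77). The mean of RPS22A rested on replicate 4, without which it was -0.40, and with the position trend removed it had -0.58 ± 0.14. Of the 17 members, 6 lay above 0 in all 4 replicates as deposited (9.53% of all genes did) and 2, RPS15 and RPS22A, below 0 in all 4 (5.55%). With the position trend removed, 2 lay above 0 in all 4, RPS10B and RPS21B (7.82% of all genes did), and 2 below, RPS22A and RPS25A (6.97%).

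**Figure D5:**
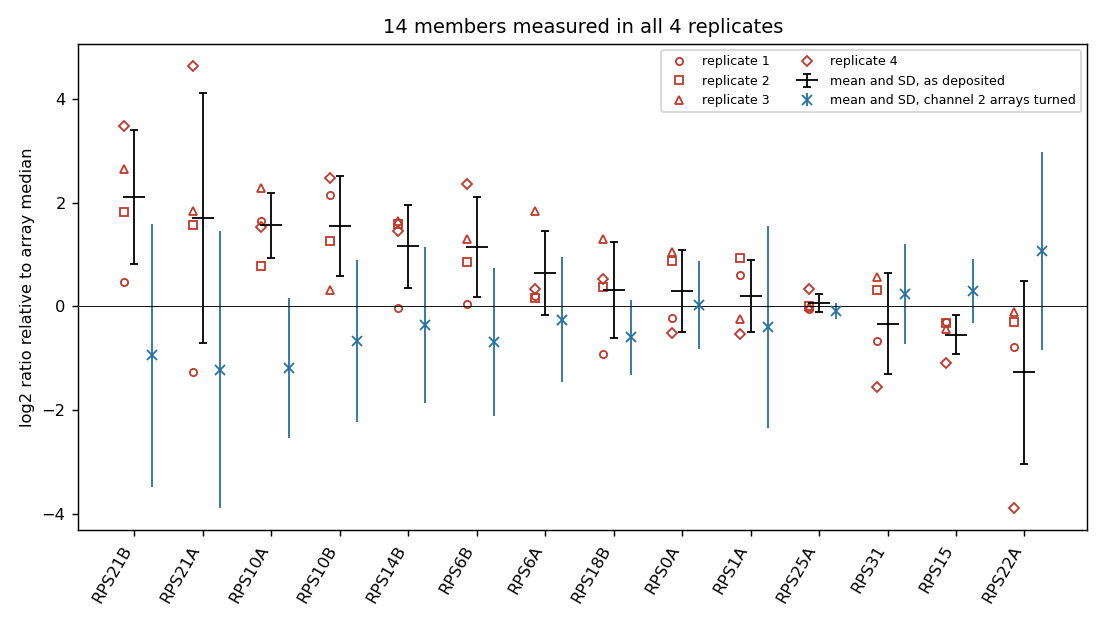
Replicate values (red symbols), mean and SD as deposited (black) and mean and SD with arrays 2, 4 and 5 turned (blue) for small-subunit genes with a value in all 4 replicates, as log2 ratios relative to the array median, ordered by the mean as deposited. RPS21B, RPS21A, RPS10A and RPS10B are at the left with means from 2.10 down to 1.54, and RPS22A is at the right at -1.27.

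Counting single arrays as deposited, 34 members had a value on at least 4 of them. Of these, RPS6B, RPS10B and RPS18A lay above 0 on every array that measured them (3 of 34, where 5.54% of all genes did), and RPS15 and RPS22A below 0 (2 of 34, where 6.33% did). Once the local level was removed on every array, 2 of the 34 lay above 0 throughout, RPS10B and RPS16B (5.28% of all genes did), and 2 below, RPS22A and RPS25A (7.65%). RPS18A, at -2.16 on array 5, RPS6B, at -0.22 on array 1, and RPS15, at 0.38 on array 1, were no longer among them. Since the direction between the arrays of each channel is unknown, 1 sign throughout need not be 1 direction of IP RNA. Turned, the means over replicates were -0.66 for RPS10B, -0.69 for RPS6B, 0.30 for RPS15 and 1.07 for RPS22A.

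Other genes of the pathway were seldom measured in all replicates, and none passed. Of 34 tested large-subunit genes, 0 passed limma's adjusted p and 31 had a mean above 0, with a median of 0.88 as deposited and -0.76 turned. Of 81 listed 40S assembly factors on the arrays, 3 were tested (ECM16, NOB1 and UTP25), none passed in either direction and all had means below 0, from -1.21 to -0.03. Turned, these means were above 0, at 0.94, 0.25 and 1.32. Of 28 listed factors that bind the 40S subunit, mostly for initiation, 2 were tested and neither passed. They were TIF2, an eIF4A gene, with a mean of 0.70, and ASC1, a scaffold protein of the 40S head, with 0.79. Turned, TIF2 had 0.32 and ASC1 -1.33. Of 10 listed regulators of ribosomal protein gene transcription, 3 were tested and none passed (limma adjusted p from 0.54 to 0.64): SFP1 had a mean of 1.90, IFH1, a coactivator, 1.42, and HMO1 1.21. The arrays disagreed behind the means of IFH1 and HMO1. IFH1 had -1.02, -0.92 and -1.21 on arrays 1 to 3, and 4.01 and 3.85 on arrays 4 and 5. HMO1 had 1.67, 3.09 and -1.71 on arrays 1, 3 and 4. Turned, SFP1 had -1.17, IFH1 -2.28 and HMO1 0.76.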

How the data were processed

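Each spot of the authors' deposited tables holds a log10 ratio of its channels. How it was made and which channel is on top are not given in the sources used here. Base 10 follows from the values, since the simplest fraction matching a value had small whole terms for 32.0% to 93.5% of the values of an array, against 5.8% to 7.3% of jittered values. These fractions gave the brightness. Values were taken to log2 and centred on the array median. The number of arrays limits the precision. GEO's platform annotation named the spots (1 gene each for 6695 of 7680 and 11138 of 12800, the rest unnamed here), and gene identifiers matched RefSeq assembly R64 for 5578 of 5583 and 5534 of 5539 genes. Limma's lmFit and eBayes tested genes with a value in every replicate against 0 (R 4.3.3, limma 3.58.1, statmod 1.5.0). P-values were adjusted by Benjamini-Hochberg over all genes tested, and 0.05 was the threshold, after a check on simulated ratios. Python 3.11.15, numpy 2.4.6, pandas 2.3.3 and matplotlib 3.10.9 did the rest. Members and lists were chosen with earlier results of these data known. The text names tested members, the extremes of each array, copy pairs with small and large mean gaps, and members on fewest arrays. Alternatives changed direction, replicate unit, filters, scaling, centring, variance model and trends. Removing the running median of 81 spots in list order was added after the data were seen. No sequences were used here. Some members are not reported here by name but are kept in counts, medians and fits.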

Additional observations from a re-analysis of the deposited data

Results flagged for a closer look

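Dixon's test at 95% set 1 replicate far from the rest in 3 of the 17 tested members. Chance at 1 in 20 gives 0.85. RPS6A had 1.84 in replicate 3 (array 4), against 0.16 to 0.34 in the others. RPS14B had -0.029 in replicate 1, the mean of arrays 1 and 2, against 1.45 to 1.65 in the others. Its array 5 value of 1.45 averages 2 spots that differed by 2.00. RPS25A had 0.33 in replicate 4 (array 5, at a local level of 0.68), against -0.06 to 0.00 in the others. The arrays differ in spread, and the cause was not tested.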

How the results depend on the processing

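Limma called 0 genes under the setting reported and under all 14 alternatives, with 16 to 170 genes at an unadjusted p under 0.05. The members' median mean ratio (0.64) was -0.32 with the channel 2 arrays turned, and 0.34 to 0.78 with 1 replicate left out. Means above 0 numbered 14 of 17 as reported and 6 of 17 turned. The count was 30 of 37 among genes in at least 3 replicates, 37 of 47 in at least 2, 4 of 6 with the brightness trend removed and 13 to 23 with 1 replicate left out, settings that test more or fewer members. On array 5 the median of 0.91 was 0.41 with the position trend removed. Turned, the means were -0.94 for RPS21B, -1.22 for RPS21A, -1.18 for RPS10A, -0.66 for RPS10B, -0.36 for RPS14B, -0.69 for RPS6B, -0.25 for RPS6A, -0.60 for RPS18B, -0.40 for RPS1A, -0.093 for RPS25A, 0.24 for RPS31, 0.30 for RPS15 and 1.07 for RPS22A. With the position trend removed, RPS1A had -0.34, RPS6A -0.045, RPS25A -0.26 and RPS31 0.33. Means that kept their sign but moved by over 1.5 times there were those of RPS10A (1.02), RPS10B (1.00), RPS21A (1.04), RPS6B (0.55) and RPS22A (-0.58). RPS18B had -0.21 with the brightness trend removed. With 1 replicate left out, the mean ran from -0.052 to 0.44 for RPS1A, -0.0056 to 0.74 for RPS18B, -0.023 to 0.11 for RPS25A and -0.63 to 0.076 for RPS31, and from 0.72 to 2.68 for RPS21A, 0.042 to 0.56 for RPS0A, 0.23 to 0.80 for RPS6A, 0.74 to 1.51 for RPS6B and -1.66 to -0.40 for RPS22A. No paired analysis was possible because all arrays form 1 group and each ratio already sets IP against total RNA.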
